A study of Mus musculus with 6 samples.

Results

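The genes described here encode the nuclear subunits of complex II (succinate dehydrogenase), complex III (cytochrome bc1), complex IV (cytochrome c oxidase) and complex V (ATP synthase), chosen by gene symbol. Of 34361 genes in the deposited gene table, 48 had such a symbol, 4 for complex II, 9 for complex III, 17 for complex IV and 18 for complex V. Cells make most of their ATP in the inner mitochondrial membrane, where electrons pass along the respiratory complexes and the proton gradient they build drives ATP synthase. The symbols also take in Cox7a2l, whose protein joins complexes III and IV into supercomplexes, and Atp5if1, whose protein inhibits ATP synthase. They also take in Cox6c2, counted with complex IV, whose 1 transcript the table annotates as a processed pseudogene. Complex II is wholly nuclear-encoded, whereas mitochondrial DNA encodes some subunits of the other complexes. Some nuclear subunits of complex IV come in a form made in most tissues and a form made mainly in 1 kind of tissue. In mice, Cox6a2, Cox7a1 and Cox8b are the forms of heart and skeletal muscle.

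RNA of femur from 6 mice was sequenced, from 3 animals labelled as a tamoxifen-induced knockout and 3 injected with corn oil as controls. The study's design text names Fshr, the receptor of follicle-stimulating hormone, as the deleted gene, the treatment label names FGF21, and the title concerns FSH and osteocytes of ovariectomized mice. Tamoxifen was given in the knockout-labelled group alone, so drug and deletion cannot be told apart. The labels do not name the strain, the age or the Cre driver, nor do they say whether the ovaries had been removed or the bone broken.

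Libraries held 65796046 to 73494537 estimated counts, where 1 read pair adds about 4 counts. Fshr and Fgf21 were both listed at 0 counts in all 6 libraries, where a count of 0 allows up to 12 counts (3 read pairs), so neither checks the labels. Markers of the tissue differed widely between the groups. The summed FPKM (read fragments per unit of gene length and sequencing depth, as deposited) of 20 skeletal muscle genes was 46726 to 47430 in knockout-labelled femora and 10412 to 10538 in controls, and all 20 rose. For 12 osteoblast and osteocyte genes the sums were 4079 to 4118 in knockout-labelled femora and 16875 to 16998 in controls, with 10 lower and 2 (Sost and Mepe) higher with TMM scaling, a trimmed mean that sets most genes level between libraries. As TPM, which is FPKM rescaled to 1 total for every library, Mepe was lower instead, with a log2 fold change of -0.60. All 10 osteoclast genes and all 10 neutrophil genes fell, while all 10 erythroid genes, all 8 adipocyte genes and 7 of 8 smooth muscle and pericyte genes rose with TMM. As TPM, 9 erythroid genes rose, and smooth muscle genes split into 3 higher and 3 lower. In whole femur, fewer cells of a type and less RNA per cell cannot be told apart.

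The 48 respiratory genes were more abundant in knockout-labelled femora almost throughout. Of the 48, all of which passed the filter on low counts, 44 rose, 2 fell and 2 did not pass (edgeR quasi-likelihood test, adjusted p under 0.05 over 20388 genes). Across all tested genes 28.7% were called higher and 28.8% lower, 57.5% in all. The median log2 fold change of the members was 1.27 with TMM scaling, against -0.02 over all tested genes. In 38 members the rise was at least 2-fold, a size that 12.1% of tested genes reached. The groups did not overlap in TMM-scaled counts for 45 higher members and 2 lower ones, against 31.9% and 32.6% of all tested genes. Together the members took 1.28% ± 0.00817 of all counts in knockout-labelled libraries and 0.702% ± 0.00666 in controls (SD, n = 3 each). Muscle markers rose by a median of 2.61 on the same log2 scale, and their part in the rise of the respiratory genes was not tested.

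The size of these changes depends on the scaling. Scaling by library totals moves the median of all genes by -0.42 (log2), TPM by -0.73 and FPKM by -0.37. By library totals 43 members rose and 4 fell, where 16.6% of all genes rose and 50.7% fell. On the TPM scale 41 rose and 4 fell (limma), where 13.3% of all genes rose and 77.9% fell. On log2(FPKM + 1) 44 rose and 4 fell, where 20.5% and 63.7% of all genes did, and with quantile normalization 44 rose and 3 fell, where 32.9% and 40.2% did. Cox7a2l and Atp5if1 are the 2 that joined the fallen genes under library totals, FPKM and TPM. Ratios between genes of the same library do not change where a scaling multiplies all genes of a library by 1 factor. Quantile normalization and an added pseudocount can change them.

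**Figure D1:**
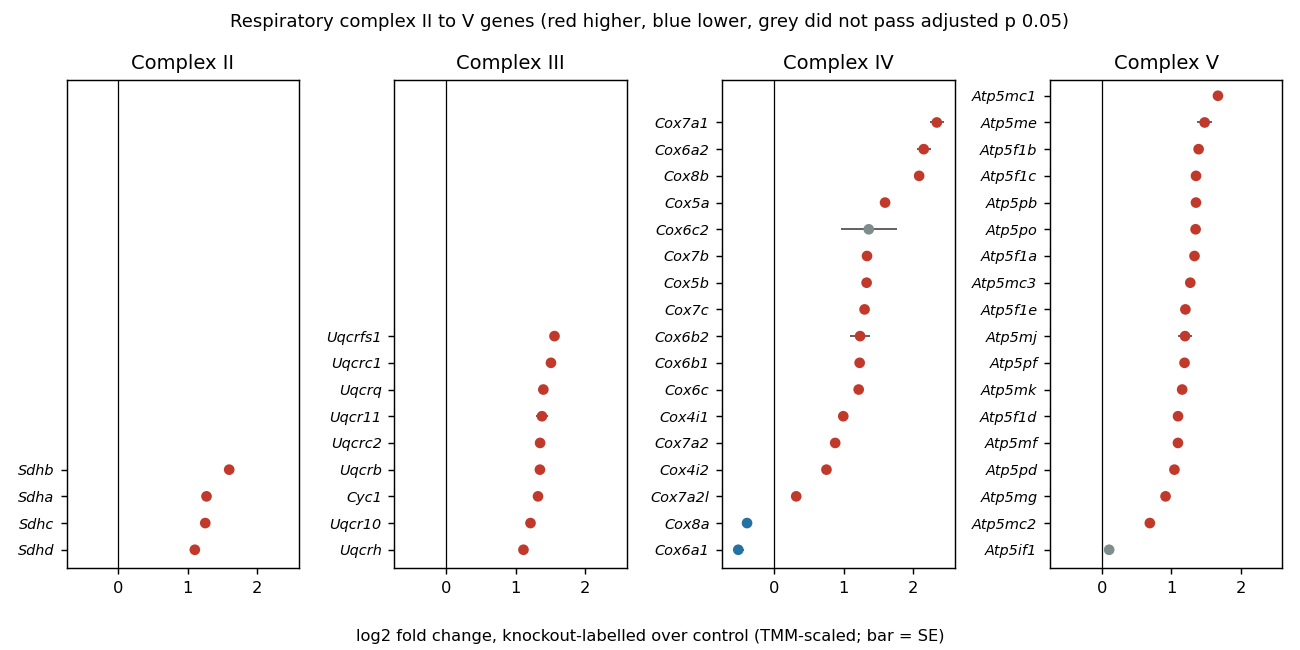
Log2 fold change of each of the 48 genes, knockout-labelled over control (x axis, TMM-scaled), in a panel for each complex. Points are edgeR estimates and bars the SE from 3 libraries a group. The middle 50 percent of the genes lie between 1.10 and 1.37, with Cox7a1, Cox6a2 and Cox8b above 2 and Cox6a1 and Cox8a below 0.

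Complex II, which oxidizes succinate and feeds electrons to ubiquinone, rose in all 4 subunits, with a median log2 fold change of 1.26. Sdhb, the iron-sulfur subunit, measured 140.3, 143.7 and 141.5 FPKM in the 3 knockout-labelled femora and 65.58, 60.89 and 62.85 FPKM in the controls. Its log2 fold change of 1.59 (SE 0.029, edgeR adjusted p 2.2e-13) was the largest of the complex. Sdha, the flavoprotein that holds the succinate site, measured 141.8, 143.3 and 140.8 FPKM in knockout-labelled femora, against 80.44, 78.92 and 78.19 FPKM in controls (log2 fold change 1.27). Sdhc and Sdhd anchor these subunits in the membrane. Sdhc measured 67.6, 70.65 and 70.12 FPKM in knockout-labelled femora and 39.17, 39.24 and 39.23 FPKM in controls. Sdhd measured 138.6, 140.4 and 144.9 FPKM in knockout-labelled femora and 90.61, 89.23 and 85.74 FPKM in controls, with the smallest change of the complex at 1.10. For each of the 4 genes, every knockout-labelled value exceeded every control value.

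In complex III, which passes electrons from ubiquinol to cytochrome c, all 9 subunits rose, with a median log2 fold change of 1.35. Uqcrfs1, the Rieske iron-sulfur protein, had the largest change of the complex and the highest gene FPKM. Summed over transcripts, Uqcrc1 ranked first, at 328 FPKM in knockout-labelled femora and 155 FPKM in controls, against 214 and 97.5 FPKM for Uqcrfs1. By gene FPKM, Uqcrfs1 measured 210.1, 213 and 218.3 in knockout-labelled femora and 96.6, 97.93 and 98.12 in controls (log2 fold change 1.56, SE 0.017, edgeR adjusted p 7.8e-14). Cyc1, the cytochrome c1 that hands electrons to cytochrome c, measured 126.3, 130.7 and 132.6 FPKM in knockout-labelled femora and 71.42, 69.64 and 68.46 FPKM in controls. The hinge protein gene Uqcrh changed least, by 1.11 on the log2 scale, at 108.7, 110 and 111.7 FPKM in knockout-labelled femora against 66.97, 66.35 and 71.99 FPKM in controls. Groups did not overlap for any of these genes. The core protein genes Uqcrc1 and Uqcrc2 changed by 1.51 and 1.35. The small subunits Uqcr10, Uqcr11, Uqcrb and Uqcrq ranged between 1.21 and 1.40.

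Complex IV, the terminal oxidase that reduces oxygen to water, was the most mixed of the 4 complexes. Its 17 genes had a median log2 fold change of 1.24 but spanned -0.52 (Cox6a1) to 2.34 (Cox7a1), with 14 higher, 2 lower and 1 that did not pass. Subunits Cox5a (1.60), Cox5b (1.33), Cox6c (1.22), Cox7b (1.34) and Cox7c (1.30) changed by amounts like those of complexes II and III. A near copy named Cox5b-ps was itself listed at 18.4 to 21.2 FPKM in knockout-labelled femora and 6.91 to 10.3 FPKM in controls, so reads may be split between them and the value of Cox5b is uncertain. For the same reason Cox6c and Cox6c2 are uncertain, as are Atp5pb, Atp5mg and Atp5me of complex V, which have copies listed at lower levels. The pseudogene Cox6c2, which was barely detected, did not pass. It measured 1.45, 2.06 and 1.73 FPKM in knockout-labelled femora and 0.499, 0.703 and 1.45 FPKM in controls (log2 fold change 1.36, edgeR adjusted p 0.052). In FPKM the third control overlapped the knockout-labelled values, although TMM-scaled counts did not overlap, and without that control the adjusted p was 0.027.

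The 3 muscle-type genes of complex IV had the largest changes of all 48 genes, and they were compared with the forms found in most tissues. Cox6a2 (GRCm39 chr7:127804607-127805559, minus strand) and Cox6a1 (chr5:115483701-115487040, minus) encode subunit VIa, which binds nucleotides and regulates the oxidase. Cox7a1 (chr7:29883569-29885503, plus) and Cox7a2 (chr9:79662643-79667160, minus) encode subunit VIIa. Cox8b (chr7:140478858-140480359, minus) and Cox8a (chr19:7192518-7194981, minus) encode subunit VIII. Below are the 250 bases before the start of the genes for both VIIa forms and both VIII forms, since these pairs moved apart and were the ones found in the RefSeq promoter table (GRCm38.p6). Each is written 5′ to 3′ on the gene's strand, with CANNTG in capitals, the E-box that muscle regulators of the MyoD family bind.
Cox7a1, muscle form, chr7:30183921-30184170, plus strand: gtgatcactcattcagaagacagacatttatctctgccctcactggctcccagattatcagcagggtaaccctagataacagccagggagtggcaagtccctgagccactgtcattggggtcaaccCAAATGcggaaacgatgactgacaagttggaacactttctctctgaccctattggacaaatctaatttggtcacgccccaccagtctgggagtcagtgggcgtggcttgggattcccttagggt
Cox7a2, ubiquitous form, chr9:79759854-79760103, minus strand: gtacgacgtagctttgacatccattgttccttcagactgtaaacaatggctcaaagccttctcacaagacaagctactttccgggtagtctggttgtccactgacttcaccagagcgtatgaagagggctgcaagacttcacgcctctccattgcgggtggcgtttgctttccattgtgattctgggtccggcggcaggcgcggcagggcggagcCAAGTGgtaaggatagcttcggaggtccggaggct
Cox8b, muscle form, chr7:140900447-140900696, minus strand: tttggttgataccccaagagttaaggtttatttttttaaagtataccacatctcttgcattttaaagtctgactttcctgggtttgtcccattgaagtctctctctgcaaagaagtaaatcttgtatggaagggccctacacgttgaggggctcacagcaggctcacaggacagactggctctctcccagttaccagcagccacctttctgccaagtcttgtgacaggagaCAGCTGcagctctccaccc
Cox8a, ubiquitous form, chr19:7217617-7217866, minus strand: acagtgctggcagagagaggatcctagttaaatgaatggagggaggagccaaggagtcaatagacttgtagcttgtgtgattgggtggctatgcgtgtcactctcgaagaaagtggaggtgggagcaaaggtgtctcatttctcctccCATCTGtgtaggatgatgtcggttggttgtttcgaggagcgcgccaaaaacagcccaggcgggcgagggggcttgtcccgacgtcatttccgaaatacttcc

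All 4 windows held 1 CANNTG, as did 66.2% of 32851 windows of the same length with at least 1, so its presence does not set the muscle forms apart. The CAGCTG spelling, which reads the same on both strands, was found in the Cox8b window and in 13.0% of all windows. The MEF2 motif and TNAAGGTCA, searched on both strands, are held by 2.92% and 1.14% of all windows and were not found in these 4. Of the 48 genes, 21 had a promoter in the table, too few for a comparison over the set.

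Cox6a2 had the highest mean FPKM of complex IV in knockout-labelled femora. Summed over transcripts it averaged 534 ± 50.8 FPKM there and Cox4i1 504 ± 1.45 FPKM (SD, n = 3), a difference smaller than its spread. It measured 566.8, 559.3 and 475.3 FPKM in knockout-labelled femora and 149.7, 168.5 and 165.1 FPKM in controls (log2 fold change 2.15, SE 0.10, edgeR adjusted p 3.9e-11). Its counterpart Cox6a1 measured 71.94, 74.19 and 63.07 FPKM in knockout-labelled femora and 130, 135.2 and 136.2 FPKM in controls (log2 fold change -0.52, SE 0.078, adjusted p 5.8e-06). The groups separate for both genes, in opposite directions. Cox8b measured 157.8, 161.8 and 151.1 FPKM in knockout-labelled femora and 45.37, 52.85 and 50.41 FPKM in controls (log2 fold change 2.09, SE 0.075). Cox8a, its ubiquitous counterpart, measured 58.22, 67.14 and 65.3 FPKM in knockout-labelled femora and 114.3, 109.9 and 111.2 FPKM in controls (log2 fold change -0.39, edgeR adjusted p 3.2e-05). Again all knockout-labelled values lay on 1 side of the controls, above for Cox8b and below for Cox8a. Cox7a1 measured 97.33, 98.46 and 94.65 FPKM in knockout-labelled femora and 22.32, 28.15 and 26.36 FPKM in controls (log2 fold change 2.34, SE 0.10). Cox7a2, unlike Cox6a1 and Cox8a, rose, with 69.68, 75.78 and 72.17 FPKM in knockout-labelled femora and 52.07, 52.2 and 54.58 FPKM in controls (log2 fold change 0.88).

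**Figure D2:**
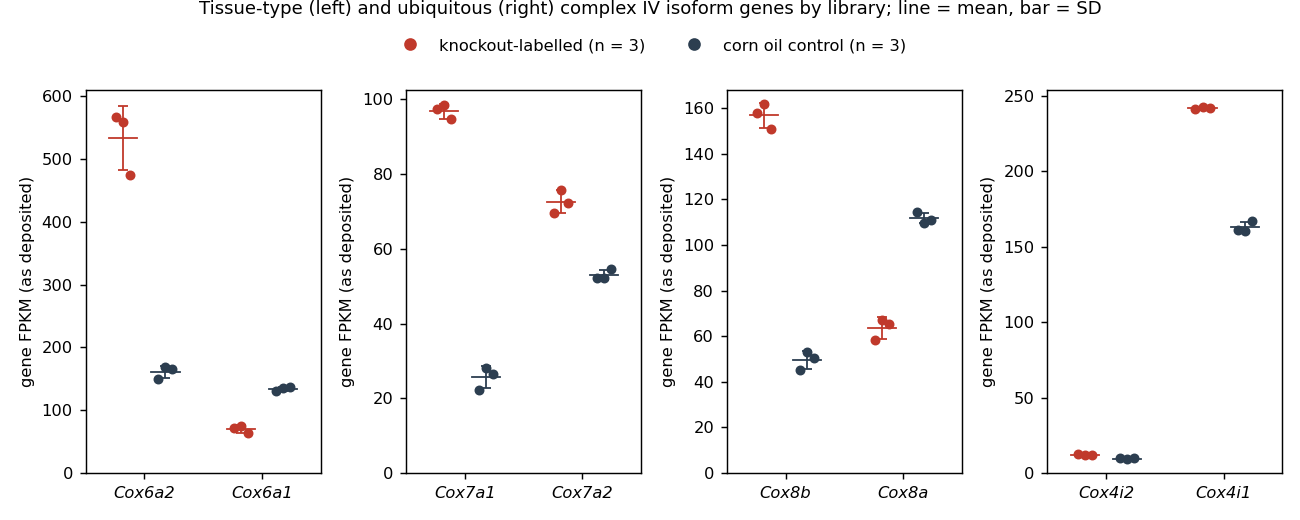
Gene FPKM as deposited (y axis) of tissue-type and ubiquitous complex IV isoforms, 1 panel per pair, with points for the 3 knockout-labelled and the 3 control libraries, lines for means and bars for SD. Cox6a2 averaged 533.8 and 161.1 FPKM and Cox6a1 69.7 and 133.8 FPKM in the knockout-labelled and control groups.

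The balance within each pair was measured as a log2 ratio of FPKM inside each library. Cox6a2 over Cox6a1 averaged 2.94 in knockout-labelled femora and 0.27 in controls, a difference of 2.67 (SE 0.039) or 6.36-fold. With FPKM summed over transcripts the difference was also 2.67, but the linear ratio in controls was 0.980, so which of these genes was higher in controls depends on the length used. Cox8b over Cox8a averaged 1.31 in knockout-labelled femora and -1.18 in controls, a difference of 2.48 (SE 0.11) or 5.59-fold. Cox7a1 over Cox7a2 averaged 0.42 in knockout-labelled femora and -1.05 in controls, a difference of 1.47 (SE 0.10) or 2.77-fold. For these 3 pairs each knockout-labelled ratio exceeded each control ratio, with p = 0.1 in a two-sided exact permutation test, the smallest that 3 against 3 allows, and 0.125 after adjustment over 5 pairs. By FPKM summed over transcripts, Cox6a2 made up 86.2% ± 0.303 of the pair in knockout-labelled femora and 49.5% ± 0.995 in controls (SD, n = 3 each). The muscle-form share was 68.7% ± 1.75 in knockout-labelled femora and 28.2% ± 1.98 in controls for Cox8b, and 55.2% ± 1.06 against 31.0% ± 2.60 for Cox7a1. Skeletal muscle markers rose over the same libraries, and their part in these shifts was not tested. Cox7a1 and Cox8b are also made in brown fat, whose defining gene Ucp1 averaged 0.17 FPKM in knockout-labelled femora and 0.712 FPKM in controls. The summed FPKM of 6 brown fat genes was 4.81 to 6.07 in knockout-labelled femora and 5.39 to 5.85 in controls, with 4 genes higher and 2 lower with TMM, and 1 higher and 2 lower by library totals.

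Forms linked to other tissues showed a slightly lower or an overlapping ratio to their ubiquitous counterparts. Cox4i2, a form of lung that responds to low oxygen, measured 12.74, 11.61 and 11.56 FPKM in knockout-labelled femora and 9.659, 8.962 and 9.977 FPKM in controls (log2 fold change 0.75 with TMM and -0.02 on the TPM scale). Its counterpart Cox4i1 measured 241.4, 242.6 and 241.8 FPKM in knockout-labelled femora and 160.9, 160.7 and 167.3 FPKM in controls (log2 fold change 1.00). The log2 ratio of Cox4i2 to Cox4i1 was lower in knockout-labelled femora, at -4.34 against -4.10 in controls (difference -0.24, SE 0.058, exact permutation p = 0.1). Cox6b2, the testis form, was low throughout, at 2.65, 2.953 and 2.816 FPKM in knockout-labelled femora and 1.459, 1.93 and 1.374 FPKM in controls. Cox6b1 measured 181.1, 188.3 and 175.4 FPKM in knockout-labelled femora and 102.6, 101.3 and 107.7 FPKM in controls. Both genes rose, by 1.24 and 1.23 on the log2 scale, and their log2 ratio averaged -6.02 in knockout-labelled femora and -6.05 in controls (difference 0.03, SE 0.18, exact permutation p = 0.9). That difference took values between -0.09 and 0.20 when single libraries were left out. Of 7 listed germ cell genes 4 were matched, and of these Prm1 and Prm2 were at 0 in every library. The 4 summed to 0.0621 to 0.332 FPKM in knockout-labelled femora and 0.0818 to 0.511 FPKM in controls. Ldhc alone passed the filter on low counts, and its change (log2 fold change 0.26) did not pass.

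**Figure D3:**
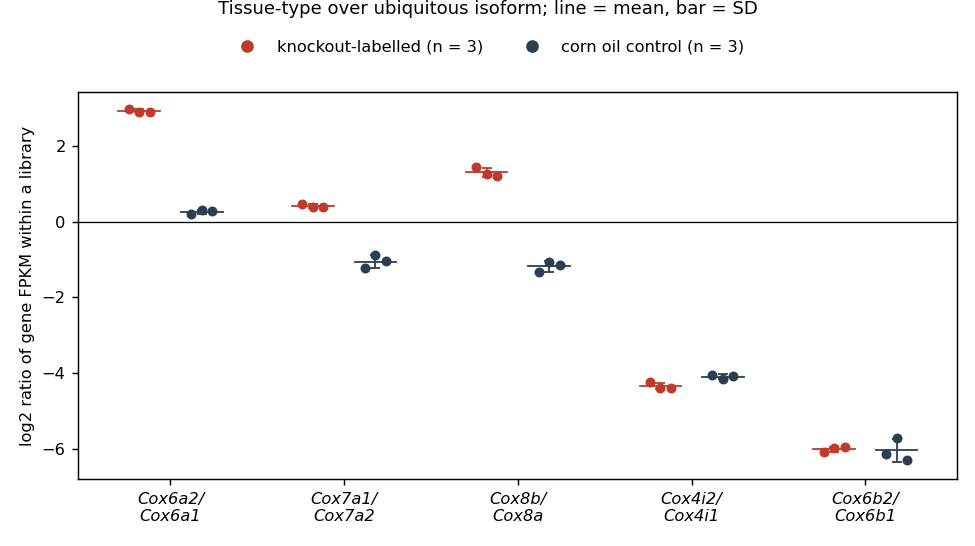
Log2 ratio of the tissue-type to the ubiquitous isoform within each library (y axis, gene FPKM) for 5 pairs, with 3 knockout-labelled points left of 3 control points, mean lines and SD bars. The groups are far apart for Cox6a2/Cox6a1, Cox8b/Cox8a and Cox7a1/Cox7a2, close for Cox4i2/Cox4i1 and overlapping for Cox6b2/Cox6b1.

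Cox7a2l (chr17:83809347-83824759, minus strand), the supercomplex factor related to subunit VIIa, did not follow most of the complex IV subunits. It measured 84.53, 82.78 and 79.68 FPKM in knockout-labelled femora and 86.14, 88.45 and 91.38 FPKM in controls, slightly lower in every knockout-labelled library. With TMM scaling its log2 fold change was 0.32 (edgeR adjusted p 6.5e-06), while by library totals it was -0.10 and on the TPM scale -0.45, so its direction depends on the scaling. Of the complex IV genes, only Cox6a1 (-0.52) and Cox8a (-0.39) lay below it with TMM. The summed complex IV members include Cox7a2l itself. Cox6a2 gave 534 of their 1948 FPKM in knockout-labelled femora and 161 of 1125 FPKM in controls. Relative to that sum in the same library, the log2 ratio of Cox7a2l was -4.56 in knockout-labelled femora and -3.67 in controls. The difference of -0.90 (SE 0.021, exact permutation p = 0.1) does not depend on a scaling by 1 factor per library, but this ratio was chosen after its values were seen.

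Complex V, which makes ATP in its F1 head from the proton flow through its membrane part, rose in 17 of 18 genes, with a median log2 fold change of 1.20. Among F1 subunits, Atp5f1a, the alpha subunit, had the highest gene FPKM of the complex, at 525.4, 529.1 and 528.2 in knockout-labelled femora and 284.9, 279.1 and 280.5 in controls (log2 fold change 1.33, edgeR adjusted p 2.3e-15). Summed over transcripts Atp5f1b was higher, at 977 FPKM in knockout-labelled femora and 503 FPKM in controls, against 670 and 358 FPKM for Atp5f1a. The catalytic beta subunit Atp5f1b and the rotor subunit Atp5f1c changed by 1.39 and 1.35 on the log2 scale, and Atp5f1d and Atp5f1e by 1.09 and 1.20. In the stalk that holds the head still, Atp5po (1.35), Atp5pb (1.35), Atp5pf (1.19) and Atp5pd (1.04) rose. The membrane subunits Atp5me, Atp5mf, Atp5mg, Atp5mj and Atp5mk ranged between 0.92 and 1.48.

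Genes of the c-ring, which turns as protons pass, differed among themselves. Atp5mc1, Atp5mc2 and Atp5mc3 encode the same mature c subunit behind different import sequences. Atp5mc1 had the largest change of complex V, with 52.11, 50.28 and 48.58 FPKM in knockout-labelled femora and 20.99, 21.31 and 21.44 FPKM in controls (log2 fold change 1.67, SE 0.035, edgeR adjusted p 4.5e-13). Atp5mc3 changed by 1.27 and Atp5mc2 by 0.69 with TMM, and Atp5mc2 by -0.09 on the TPM scale. Per length, as FPKM summed over transcripts, Atp5mc1 averaged 384 ± 18.1 in knockout-labelled femora and 141 ± 10.6 in controls (SD, n = 3 each). Atp5mc2 averaged 164 ± 10.2 in knockout-labelled femora and 135 ± 4.00 in controls. On this summed measure, Atp5mc1 and Atp5mc2 differed by less than the SD of Atp5mc1 in controls and by far more than it in knockout-labelled femora. Atp5mc3 stood above both, at 438 ± 5.30 and 243 ± 8.86 in knockout-labelled and control femora. By gene FPKM, Atp5mc2 was instead above Atp5mc1 in both groups. Atp5mc2 averaged 67.9 against 50.3 for Atp5mc1 in knockout-labelled femora, and 56.5 against 21.2 in controls. The order of these 2 genes thus depends on the length used.

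Atp5if1 (chr4:132257866-132260970, minus strand), whose protein blocks ATP hydrolysis when the membrane potential falls, was the exception in complex V. It measured 25.13, 25.27 and 23.7 FPKM in knockout-labelled femora and 30.16, 32.48 and 29.93 FPKM in controls. Its log2 fold change was 0.10 with TMM scaling (SE 0.051, edgeR adjusted p 0.11), -0.32 by library totals and -0.66 on the TPM scale. Relative to Atp5f1b, whose protein it binds, its level in knockout-labelled femora was 0.41 of that in controls. The log2 ratios were -4.16 in knockout-labelled femora and -2.87 in controls, a difference of -1.29 (SE 0.047, exact permutation p = 0.1), and this ratio too was chosen after its values were seen.

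Transcripts of Atp5f1c (chr2:10060827-10085255, minus strand) differ by a short exon that heart and skeletal muscle skip in human and cattle. The skip moves the stop codon and alters the end of the gamma subunit. The 30 bases around the exon 8 junction are shown from the reference transcripts, 15 on each side, with the stop codon in capitals.
ENSMUST00000026887, 9 exons, without the short exon: tggggctgctgctctgTAAagaagaagaat
ENSMUST00000114897, 10 exons, with the short exon: tggggctgctgctctggatTAAtgaaaatc

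Without the 37-base exon the reading frame holds 297 codons, and with it 298. The transcript without the exon made up 83.3%, 81.4% and 80.6% of the gene's FPKM in knockout-labelled femora and 67.7%, 62.1% and 72.7% in controls. The transcript with it made up 16.0%, 17.7% and 18.5% in knockout-labelled femora and 31.9%, 37.4% and 26.5% in controls. Both shares separate the groups, with p = 0.1 in a two-sided exact permutation test and 0.375 after adjustment over 30 shares. On the log2 scale the form without the exon rose by 1.68 (edgeR adjusted p 3.7e-05 over 47621 transcripts, of which 10.2% rose and 7.93% fell). The form with it changed by 0.52 (adjusted p 0.0502), and its FPKM overlapped between groups. Most of the added Atp5f1c signal was assigned to the form that skips the exon.

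In all, 30 transcript shares in 14 genes lay between 10 and 90 percent and were compared, and 8 of them, from 5 genes, separated the groups. Over all tested genes 19.5% of such shares did, and shares of 1 gene are not independent, since in Atp5f1c, Cyc1 and Cox7a2l 1 transcript gained what another lost. For Cyc1, the 7-exon coding transcript made up 79.1% ± 0.859 in knockout-labelled femora and 70.5% ± 2.80 in controls, and a transcript with a retained intron 19.1% ± 1.97 and 28.2% ± 3.01. The 4-exon transcript of Cox7a2l held 14.6% ± 2.09 in knockout-labelled femora and 9.84% ± 0.520 in controls. Main transcripts of Atp5mc3 (69.9% against 65.9% in controls) and Atp5pf (87.4% against 83.9%) shifted by under 4 points. All of these have an exact permutation p of 0.1. The assignment of reads to transcripts was unstable for some members. The 4-exon, 625-base transcript of Cox5b took 49.2%, 49.5% and 4.66% of the gene in knockout-labelled femora and 3.0%, 1.18% and 47.1% in controls, so no difference between groups can be read there.

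**Figure D4:**
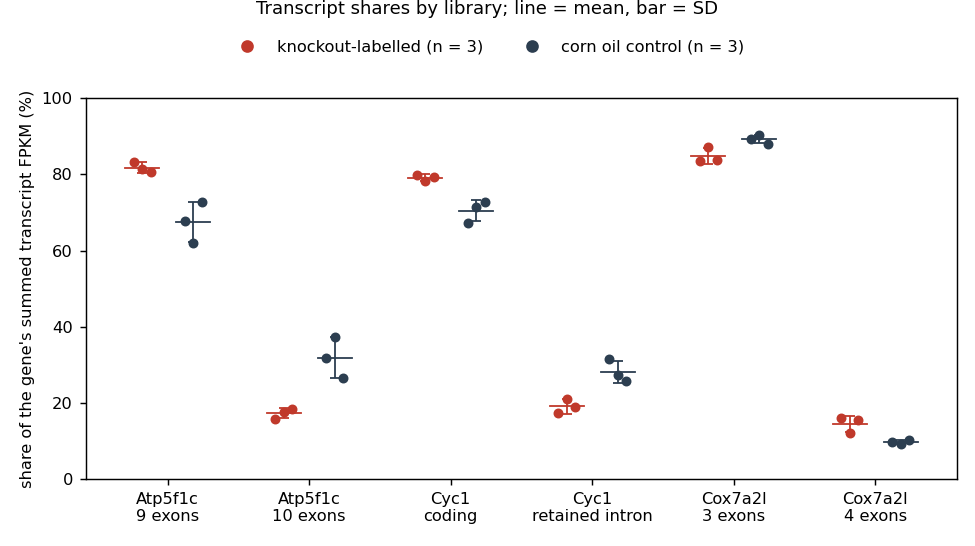
Share of a gene's summed transcript FPKM (y axis, percent) for transcripts of Atp5f1c, Cyc1 and Cox7a2l, with 3 knockout-labelled points left of 3 control points, mean lines and SD bars. The Atp5f1c form without the short exon averaged 81.8% in knockout-labelled and 67.5% in control femora.

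Genes that build the complexes also rose, with smaller medians than the subunits. Of the complex II assembly factors 4 of 4 rose (median log2 fold change 0.85), led by Sdhaf3 at 1.20. Of complex III factors 8 of 9 rose (median 1.04), with Uqcc1 at 1.45 and Uqcc2 at 1.22, and Uqcc5 did not pass at -0.07. Of complex IV factors 21 of 26 rose and none fell (median 0.73). Taco1, an activator of cytochrome oxidase translation, changed by 1.69, Lrpprc, which stabilizes mitochondrial mRNA, by 1.20, and Coa5 and Higd2a by 0.88 and 0.93. The copper chaperones Sco1 and Sco2, with Cox18, Coa4 and Pet100, did not pass. All 5 complex V factors rose (median 1.06), among them Atpaf1 at 1.58 and Tmem70 at 1.06. The difference between factors and subunits was not tested. On the TPM scale the factor medians were 0.05, 0.24, -0.04 and 0.28 for complexes II, III, IV and V, and 11 complex IV factors were lower against 8 higher, so the direction of these factors depends on the scaling. All 6 subunits of complexes III to V that mitochondrial DNA encodes rose, with a median of 1.49, including mt-Cytb at 1.58, mt-Co1 at 1.56, mt-Co2 at 1.50 and mt-Co3 at 1.48.

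Regulators of respiratory genes were divided, with 10 of 17 higher, 2 lower and 5 that did not pass (median 0.72). Perm1, a muscle regulator that acts with the ERR receptors, averaged 54.8 FPKM in knockout-labelled femora and 16.2 FPKM in controls (log2 fold change 2.18, edgeR adjusted p 3.6e-14). Ppargc1a, which encodes the coactivator PGC-1alpha, changed by 2.15, and the receptors Esrrg and Esrra by 1.49 and 1.05. Tfb2m, which starts transcription of mitochondrial DNA, changed by 1.10. Gabpa and Gabpb1, the subunits of nuclear respiratory factor 2, fell by 0.15 and 0.46. Nrf1 did not pass, at 0.06. Measured as TPM the list split evenly, with 7 higher and 7 lower, and Perm1 was at 1.39.

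Of the genes that bring substrates to the chain and carry its product away, 4 of 6 rose and 1 fell. Ckmt1 had the lowest log2 fold change of the list, at -0.97, but did not pass. Ckmt2, the mitochondrial creatine kinase of striated muscle, averaged 563 FPKM in knockout-labelled femora and 142 FPKM in controls (log2 fold change 2.41). Cytochrome c (Cycs) changed by 1.67 and the phosphate carrier Slc25a3 by 1.17. The ADP/ATP carriers moved in opposite directions, as Cox6a2 and Cox6a1 did, and Cox8b and Cox8a, but not the other complex IV pairs. Slc25a4, the form of heart and muscle, averaged 837 FPKM in knockout-labelled femora and 292 FPKM in controls (log2 fold change 1.94), while Slc25a5 averaged 56.8 FPKM in knockout-labelled femora and 126 FPKM in controls (log2 fold change -0.72, edgeR adjusted p 1.8e-10).

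Each complex was also set against 20 mitochondrial genes for import, chaperones, channels and membrane shape. All 20 rose, with a median log2 fold change of 0.87, and the channel gene Vdac1 changed most at 1.73. On the TPM scale 10 of them rose and 6 fell, at a median of 0.09. As log2 ratios of summed FPKM in each library, complex II over these genes differed by 0.12 between knockout-labelled and control femora (SE 0.020). The differences were 0.19 for complex III (SE 0.008), 0.08 for complex V (SE 0.006) and 0.04 for complex IV (SE 0.038). Complexes II, III and V separated the groups, each with a two-sided exact permutation p of 0.1, while complex IV did not, with p = 0.3. Without the third knockout-labelled library the complex IV difference was 0.08, without the second 0.02 and without the first control 0.03. When the mean of log2 FPKM over genes replaced the log2 of the sum, so that abundant genes no longer dominated, the differences were 0.42, 0.47, 0.26 and 0.28 for complexes II, III, IV and V. The nuclear complex IV genes fell relative to mt-Co1, mt-Co2 and mt-Co3 of the same libraries, at -4.48 in knockout-labelled femora and -4.17 in controls (difference -0.31, SE 0.035, exact permutation p = 0.1). This ratio was not among those planned. After adjustment over 10 ratios, the exact permutation p was 0.111 for it, for complexes II, III and V, and for the Cox7a2l and Atp5if1 ratios.

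**Figure D5:**
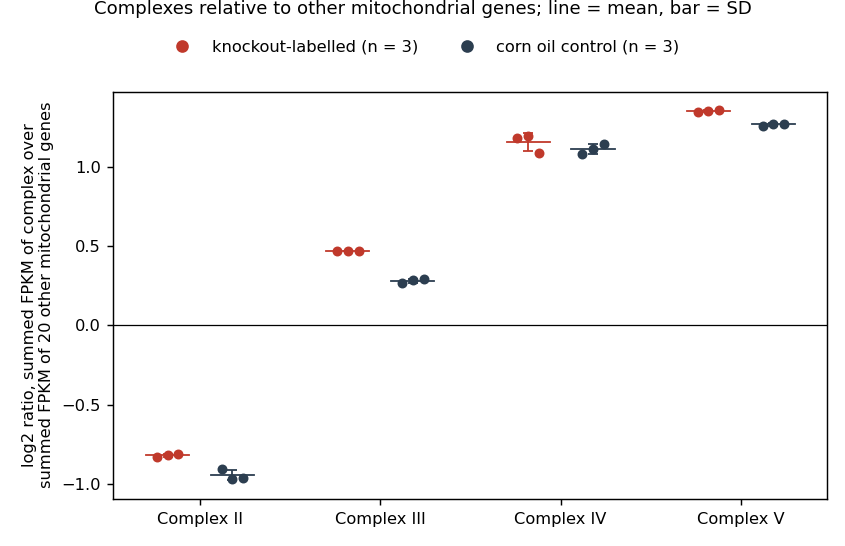
Log2 ratio of the summed FPKM of each complex to that of 20 other mitochondrial genes in the same library (y axis), with 3 knockout-labelled points left of 3 control points, mean lines and SD bars. The groups lie apart by 0.12, 0.19 and 0.08 for complexes II, III and V and overlap for complex IV.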

How the data were processed

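RNA of femur from 6 mice was measured as poly(A)-selected stranded libraries, per the labels' protocols. The deposited tables hold FPKM computed by the authors and whole-number estimated counts, per gene and per transcript. Per the submitters' processing notes, GRCm39 was the build and HISAT2, StringTie, RSEM and fastp were among the tools, with no version or role given. Expected counts were rounded and tested in edgeR 4.0.16 (R 4.3.3) with filterByExpr, TMM, the two-sided quasi-likelihood F test and Benjamini-Hochberg adjustment at 0.05. They were not divided by 4, and with that division 16899 genes passed the filter in place of 20388. DESeq2 1.42.0, limma 3.58.1, other scalings and filters, a replicate block and leaving out each library were alternatives. TPM was computed from FPKM. SE comes from the spread of log2 CPM with a prior count of 2, and depth limits cover counting error only. Genes keep 1 length in all libraries, and non-coding transcripts lengthen it, so the order of levels between genes can depend on it. Isoform and complex ratios and the highest level in a complex were taken from gene FPKM, and isoform shares and c-ring levels from FPKM summed over transcripts.

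Groups came from the treatment label. Replicates differed beyond sampling noise in read pairs (counts divided by 4, chi-square over degrees of freedom 2.07 to 2.58 over all genes and 1.15 to 4.56 over the members) and were counted as 3 each, and same-numbered libraries of the 2 groups were uncorrelated (-0.04, -0.02 and -0.00), so numbers pair nothing. Nothing but the design text says that libraries came from separate animals. The excess over sampling noise cannot tell separate animals from separate preparations of the same RNA. Spread within a group was small, as in the summed FPKM of the 20 muscle genes. It was 47148 ± 372 in knockout-labelled femora and 10458 ± 69.3 in controls (SD). The SE and adjusted p values take the libraries as separate animals. The members and the 17 lists (189 entries, 6 unmatched) were chosen with earlier results of these data known, so list counts are descriptions. Named genes were the isoform pairs, complex II, Cyc1, Cox7a2l, Atp5if1, the extremes of each complex and up to 4 per list by adjusted p, with opposite movers. Values of other members of a list were added after they were seen. Promoters came from RefSeq (GRCm38.p6), and transcript sequences and exon structures from the reference of that build. The fits were tested on simulated counts with known changes.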

Additional observations from a re-analysis of the deposited data

How the results depend on the processing

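The number of higher members was 41 to 45 under every alternative, against 44, and the replicate block, although the numbers did not pair the libraries, left 44 higher and 2 lower. Lower members numbered 4 with library totals, limma on log2(FPKM + 1), log2(FPKM + 0.1) and TPM. For library totals, FPKM + 1, FPKM + 0.1, TPM and quantile normalization in that order, the median log2 fold changes were 0.84, 0.82, 0.83, 0.48 and 0.89 for complex II, 0.93, 0.92, 0.92, 0.57 and 0.94 for complex III, 0.82, 0.77, 0.81, 0.46 and 0.86 for complex IV, and 0.78, 0.76, 0.77, 0.42 and 0.84 for complex V. Upper-quartile scaling gave 1.22 for complex II and 1.19 for complex IV, no filter 1.23 and 1.21, and leaving out single libraries 1.19 to 1.27 for complex IV. Over the same 5 settings Cox7a2l stood at -0.10, -0.11, -0.11, -0.45 and -0.039 and Atp5if1 at -0.32, -0.31, -0.32, -0.66 and -0.13, against positive values with TMM. On the TPM scale Cox4i2 was at -0.020 and Atp5mc2 at -0.086. With a pseudocount of 1 the Cox6b2 to Cox6b1 difference was -0.24. From estimated counts the ratio differences to other mitochondrial genes were 0.16, 0.25 and 0.15 for complexes II, III and V, and as means of log2 FPKM 0.42, 0.47, 0.26 and 0.28 for complexes II to V. The cause was not tested. Cox6c2 also passed with DESeq2 (adjusted p 0.048). With 3 libraries a group, no single ratio can pass 0.05 in an exact test, and Cox6c2, at 9 counts in its lowest library, is limited by depth.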
